A study of Homo sapiens with 6 samples.

Results

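RPL19, RPLP0, ACTB, GAPDH and B2M are the 5 protein-coding transcripts that a panel otherwise made of miRNA probes carries as references. They were taken by their RefSeq mRNA identifiers, which all 5 rows of that kind in the deposited table of 822 rows have; 800 other rows are human miRNAs. The values come from the NanoString nCounter miRNA assay, in which colour-coded reporters bound to their targets are counted one by one without amplification. The cells were of the human line RMUG-S-ip1, from a mucinous cancer of the ovary, grown in RPMI medium with fetal bovine serum and gentamicin. Of the 6 libraries, 3 followed transfection of a control siRNA with RNAiMAX and 3 followed transfection of an siRNA against PRKRA (siPRKRA) with the same reagent, and 100 ng of total RNA went into each. All libraries come from this 1 line. Since the labels leave it unsaid whether each library had a culture of its own, a p-value here speaks only of library-to-library spread, which may be technical. The PRKRA mRNA was not analysed here, and how far it was silenced is not known.

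PACT, the product of PRKRA, binds double-stranded RNA, works with Dicer, the enzyme that cuts miRNA precursors, and activates the kinase PKR. Reference mRNAs are not made by Dicer, and their purpose on a miRNA panel is to show how much RNA a library held. RPL19 and RPLP0 encode proteins of the large ribosomal subunit, ACTB encodes the cytoskeletal beta-actin, GAPDH a glycolytic enzyme, and B2M the light chain of MHC class I molecules, which interferon induces. A ratio of 2 of these mRNAs within a library cancels any factor applied to that library, so the comparison of siPRKRA with control siRNA was made on such ratios.

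The promoters of both ribosomal protein genes, the references used here as denominator, and of B2M are shown as the stretch of 100 bases that ends just before the transcription start in RefSeq (build GRCh38.p14). They lie at chr17:39200183-39200282 (plus strand) for RPL19, at chr12:120201112-120201211 (minus strand) for RPLP0 and at chr15:44711417-44711516 (plus strand) for B2M. Capitals mark matches, on either strand, to TATAA and to CCAAT, the core letters of the TATA box and of the CCAAT box.
RPL19: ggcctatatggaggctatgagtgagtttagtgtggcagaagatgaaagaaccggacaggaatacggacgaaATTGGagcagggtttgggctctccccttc
RPLP0: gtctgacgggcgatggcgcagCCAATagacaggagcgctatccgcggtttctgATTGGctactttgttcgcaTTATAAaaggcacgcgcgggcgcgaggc
B2M: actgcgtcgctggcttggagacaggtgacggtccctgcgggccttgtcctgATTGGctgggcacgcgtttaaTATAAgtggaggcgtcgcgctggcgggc
All 3 windows held CCAAT, and RPLP0 and B2M also held TATAA, in RPLP0 on each strand at overlapping positions. Of 35116 RefSeq promoter windows of this length 18.1% held CCAAT, 9.0% held TATAA and 1.76% held both. A match describes the letters and is not evidence of a bound factor.

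The counts above background of the mRNA and miRNA rows differed with the groups. Summed over the 5 mRNA rows, control siRNA replicates 1 to 3 held 5945, 5123 and 7175 counts above background, whereas siPRKRA replicates 1 to 3 held 37667, 20451 and 22260. Over the miRNA rows control siRNA replicates held 51641 to 56192 such counts and siPRKRA replicates 142683 to 305262. Between the smallest and the largest factor applied by the authors to a library lay 6.61-fold. siPRKRA replicate 2 stood apart from the other libraries, with miR-4454 at 62.6% of its miRNA signal and a correlation of 0.812 to 0.876 with the others across 106 miRNAs, where no other pair was under 0.868. Of 7 epithelial marker miRNAs, all named in the files, the summed value was 8565 to 9762 in control and 7088 to 7849 in siPRKRA libraries, led by miR-200c-3p, while miR-200a-3p and miR-429 were at the floor of the table in control libraries and reached 17.2 and 6.55 in siPRKRA libraries. miR-200b-3p (48.0 to 70.3 in control, 58.8 to 112 in siPRKRA libraries) and miR-203 (9.07 to 26.1 and 13.2 to 45.6) did not share the lower range of that sum. Of 5 blood markers 1 was named in the files, miR-144-3p (6.07 to 151 in control, 1.09 to 39.4 in siPRKRA libraries), the 1 endothelial marker, miR-126-3p, was at 214 to 229 and at 161 to 216, and 0 of 3 muscle markers were named. The part of these differences in the results was not tested.

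In deposited values all 5 mRNAs were highest in siPRKRA replicate 2. The value of RPL19 was 1342, 1346 and 1446 in control replicates 1 to 3 and 1229, 3631 and 1547 in siPRKRA replicates 1 to 3. RPLP0, which forms the base of the ribosomal stalk, had 1917, 1823 and 2184 against 1842, 4698 and 2289. For each of these mRNAs siPRKRA replicate 2 was far above every other library, siPRKRA replicate 1 lay below or within the control range and siPRKRA replicate 3 slightly above it. In such bulk libraries a larger share of cells with an mRNA and more of it per cell cannot be told apart. Nor do these scaled values separate a change in an mRNA from the factor of its library.

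The value of ACTB was 1404, 1080 and 1468 in the control group and 1706, 4118 and 1809 with siPRKRA. ACTB was the only one of the 5 mRNAs whose deposited values did not overlap between the groups. In the deposited scaling every siPRKRA library lay above every control library for 12.6% of all 111 rows tested, so 1 of 5 members is near the background. GAPDH had 3184, 2679 and 3333 against 2913, 6976 and 3685. B2M had 1044, 886 and 1005 against 1009, 2775 and 1117. Both overlapped, with siPRKRA replicate 1 inside the control range. GAPDH had the highest and B2M the lowest value in every library, but each mRNA is read by its own probe, so this order is not an order of mRNA amounts.

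**Figure D1:**
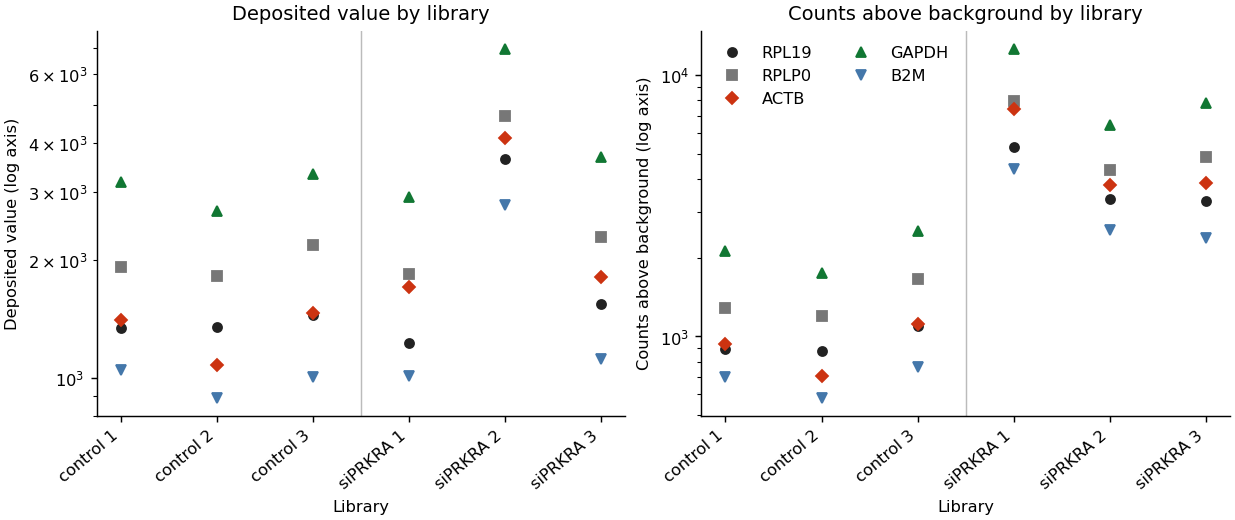
Value of each reference mRNA in each of the 6 libraries as deposited (left) and as counts above background after division by the library factor (right), both on log axes; each point is 1 library. The deposited values peak in siPRKRA replicate 2, where GAPDH reaches 6976, whereas the counts are higher in all 3 siPRKRA libraries, with ACTB at 708 to 1116 in control and 3794 to 7387 in siPRKRA libraries.

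A fit across all rows called none of the members. limma on log2(value + 1) was run over the 5 mRNAs and the 106 miRNAs that reached a value of 30 in 3 or more libraries. At a Benjamini-Hochberg adjusted p under 0.05 it called 0 of 111 rows (0%), and 16 rows (14.4%) had an unadjusted p under 0.05, none of them a member. limma-voom on the recovered counts also called 0. On that log2 scale the difference, siPRKRA minus control siRNA, was 0.84 ± 0.36 (SE) for ACTB (limma adjusted p = 0.302) and 0.58 ± 0.39 (SE) for B2M (limma adjusted p = 0.436). RPL19 had 0.47 ± 0.40 (SE; limma adjusted p = 0.493), RPLP0 0.46 ± 0.35 (SE; limma adjusted p = 0.467) and GAPDH 0.47 ± 0.33 (SE; limma adjusted p = 0.444). All 5 members had a higher estimate and a median of 0.47, beside 49 higher and 62 lower estimates and a median of -0.03 over all rows tested. Without siPRKRA replicate 2 the estimate of RPL19 was 0.0021 and that of ACTB 0.43.

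The ratio of the ribosomal protein mRNAs to each other differed between the groups by less than its spread. The log2 ratio of RPL19 to RPLP0 was -0.52, -0.44 and -0.59 in control replicates 1 to 3 and -0.58, -0.37 and -0.57 in siPRKRA replicates 1 to 3. The groups overlapped, and their means, -0.52 ± 0.08 and -0.51 ± 0.12 (SD, n = 3 each), differed by 0.0092 ± 0.081 (SE; exact permutation p = 0.9, two-sided). In linear terms RPL19 stood at 0.699 of RPLP0 in control and 0.704 in siPRKRA libraries. The largest ratio was in siPRKRA replicate 2, the library that stood apart. The geometric mean of both was used as the denominator for the other mRNAs.

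ACTB was higher relative to the ribosomal protein mRNAs in every siPRKRA library than in any control library. Its log2 ratio to them was -0.19, -0.54 and -0.28 in control replicates 1 to 3 and 0.18, -0.0041 and -0.06 in siPRKRA replicates 1 to 3. The group means were -0.33 ± 0.18 and 0.04 ± 0.13 (SD, n = 3 each), a difference of 0.37 ± 0.13 (SE), or 1.30-fold. The exact permutation p was 0.1, two-sided, the smallest that 3 against 3 libraries can give, so the test could not pass 0.05. The gap between the nearest libraries, control replicate 1 and siPRKRA replicate 3, was smaller than the spread within the control group, in which replicate 2 was the lowest. Relative to RPL19 and RPLP0, 4.59% of 109 rows, ACTB among them, had every siPRKRA library above every control library. For 14.7% every siPRKRA library lay below. Of these 109 rows 89 had a lower estimate on this denominator. In the deposited scaling the share above was 12.6% of 111 rows. Counting error alone gives each ACTB ratio an SE between 0.021 and 0.063 log2 units and the difference one of 0.036, below the replicate SDs. With 25 counts of background added back to each mRNA row the difference was 0.37, and the groups held 3 of 3 libraries apart with RPL19 alone (0.37) or RPLP0 alone (0.38) as the reference.

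The ratio of GAPDH to the ribosomal protein mRNAs also differed by less than its spread. Its log2 ratio was 0.99, 0.77 and 0.91 in the control group and 0.95, 0.76 and 0.97 with siPRKRA. These ranges nearly coincide, with replicate 2 the lowest of each group. The means were 0.89 ± 0.11 and 0.89 ± 0.12 (SD, n = 3 each), and the difference was 0.0025 ± 0.093 (SE; exact permutation p = 1, two-sided).

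B2M lay between these cases. Its log2 ratio to the ribosomal protein mRNAs was -0.62, -0.82 and -0.82 in the control group and -0.58, -0.57 and -0.75 with siPRKRA. siPRKRA replicates 1 and 2 were above all control libraries, and replicate 3 was inside their range. The difference was 0.12 ± 0.09 (SE), from -0.75 ± 0.12 to -0.63 ± 0.10 (SD, n = 3 each), at an exact permutation p of 0.2, two-sided.

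**Figure D2:**
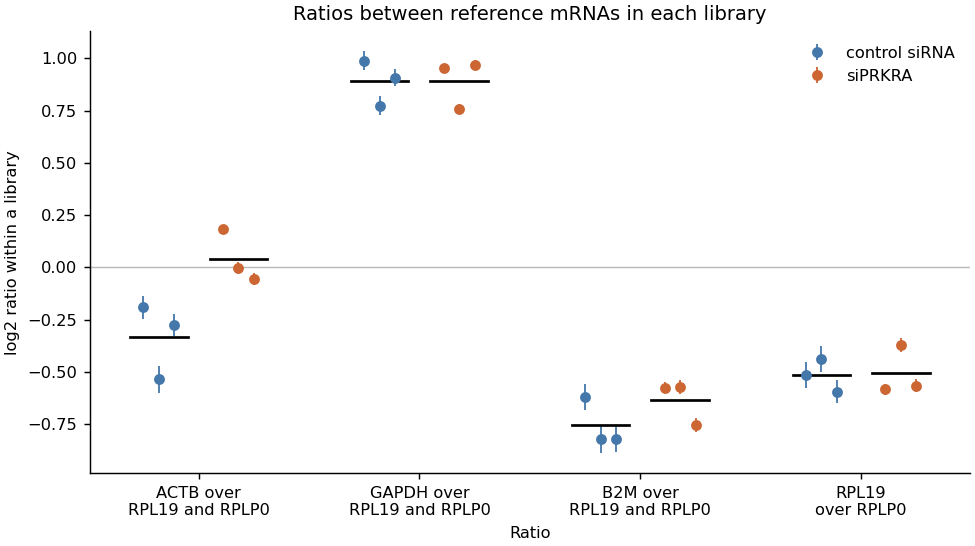
log2 ratio within each library of ACTB, GAPDH and B2M to the geometric mean of RPL19 and RPLP0, and of RPL19 to RPLP0. Each point is 1 library with its counting SE, and black lines are group means (n = 3). The ACTB points of control siRNA, from -0.54 to -0.19, all lie below those of siPRKRA, from -0.06 to 0.18, and the other ratios overlap.

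The same ratios were also tested in a fit across the table, with the mean log2 level of RPL19 and RPLP0 subtracted from each of 109 rows. limma called 0 of 109 rows (0%) at an adjusted p under 0.05, and 9 (8.26%) had an unadjusted p under 0.05, none of them a member. ACTB had a difference of 0.37 with a 95% interval from -0.46 to 1.21 (limma adjusted p = 0.584), B2M 0.12 with -0.72 to 0.96 (limma adjusted p = 0.848) and GAPDH 0.0026 with -0.80 to 0.80 (limma adjusted p = 0.994). The moderated SE of ACTB in this fit, 0.38, borrows from the spread of all rows and was wider than the SE of 0.13 from its own 6 ratios. The median over all 109 rows was -0.50, with 20 higher and 89 lower, so most miRNAs had lower estimates than the ribosomal reference. Without siPRKRA replicate 2 that median was -0.09.

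No pair of mRNAs was singled out by taking all 10. The 4 pairs with ACTB as numerator were the only ones in which the groups did not overlap. The share of such pairs over all rows was not counted. Among 111 single rows in the deposited scaling, every siPRKRA library lay above every control library for 12.6% and below for 14.4%. On the log2 scale the difference between groups was 0.38 ± 0.11 (SE) for ACTB over RPLP0, 0.37 ± 0.10 for ACTB over GAPDH, 0.37 ± 0.15 for ACTB over RPL19 and 0.25 ± 0.09 for ACTB over B2M. Each had an exact permutation p of 0.1, two-sided, and 0.25 after Benjamini-Hochberg adjustment over the 10 pairs. These pairs share the ACTB values and are not separate evidence. The other 6 differences lay between -0.12 for GAPDH over B2M and 0.12 for B2M over RPLP0, with exact permutation p values from 0.2 to 0.9 and adjusted values from 0.4 to 0.9. ACTB had a lower value than RPL19 in control replicate 2 alone, at a log2 ratio of -0.32, and the highest ratio, 0.47, was in siPRKRA replicate 1. Those libraries also held the fewest and the most mRNA counts. The part of these counts in the ACTB difference was not tested beyond the background setting above.

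**Figure D3:**
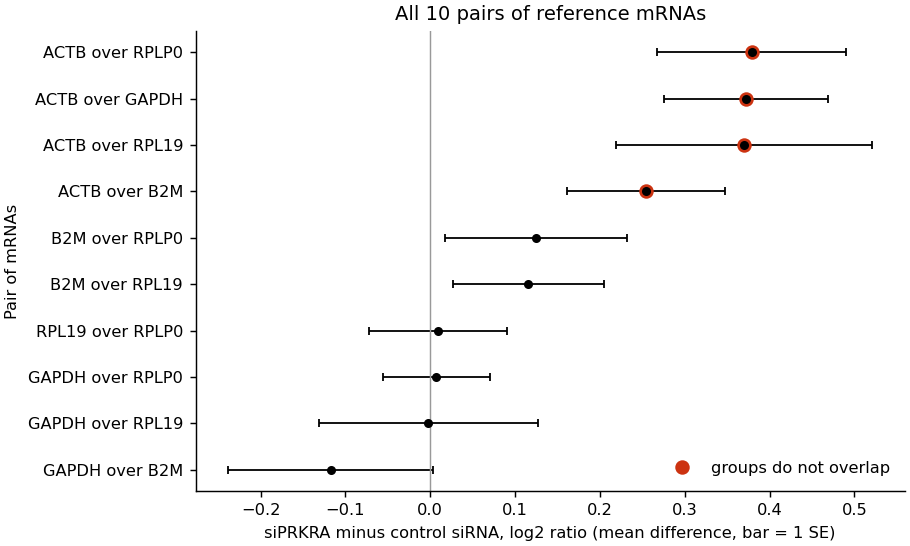
Difference between siPRKRA and control siRNA in the log2 ratio of each of the 10 pairs of reference mRNAs; points are differences of group means (n = 3 each) and bars 1 SE. The 4 pairs with ACTB as numerator, marked in red, lie between 0.25 and 0.38, and the other 6 lie between -0.12 and 0.12.

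The mRNAs kept steadier ratios to each other than to the miRNAs. The SD over the 6 libraries of the log2 ratio of 2 mRNAs was between 0.069, for GAPDH over RPLP0, and 0.26, for ACTB over RPL19, with a median of 0.14. For RPL19 over RPLP0 it was 0.089. For the 530 ratios of a member to a tested miRNA the SD was between 0.30 and 3.20, with a median of 0.71. Every member was above the median tested miRNA in each library, and 86 of the 106 tested miRNAs reached 30 in all libraries. The part of low miRNA values in these SDs was not tested. Among 5565 pairs of tested miRNAs the median SD was 0.52, with 0.575% of pairs below the value for RPL19 over RPLP0, which was among the narrowest mRNA pairs, and 15.2% below the widest mRNA pair. Among the 19 miRNAs with a mean value of at least 1000 the median over 171 pairs was 0.32, and 2.92% were below the value for RPL19 over RPLP0. Against the mean of the other 4 members the SD was 0.22 for ACTB, 0.13 for RPL19, 0.11 for GAPDH, 0.097 for RPLP0 and 0.087 for B2M. These SDs mix the spread within groups with the difference between them, and rows of the same library share its factor and background.

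The miRNAs most like the mean of the 5 mRNAs, by the smallest SD of the log2 ratio over the 6 libraries, were miR-423-3p (0.36), let-7b-5p (0.36) and miR-197-3p (0.38), where the median over 106 tested miRNAs was 0.71. For single members the nearest was let-7b-5p to RPL19 (0.31) and to B2M (0.36), miR-423-3p to RPLP0 (0.31), miR-197-3p to GAPDH (0.30) and miR-342-3p to ACTB (0.50). Each of these SDs was larger than the widest among the mRNA pairs. Their mature sequences in RefSeq (build GRCh38.p14) are shown with the seed, bases 2 to 8, in capitals, because these miRNAs followed the reference mRNAs most closely.
miR-423-3p: aGCUCGGUcugaggccccucagu
let-7b-5p: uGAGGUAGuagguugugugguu
miR-197-3p: uUCACCACcuucuccacccagc
miR-342-3p: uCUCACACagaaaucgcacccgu
No seed is shared among the 4. let-7b-5p, a member of the let-7 family, had values of 1452, 1488 and 1375 after control siRNA and of 1007, 2534 and 1049 after siPRKRA. It was highest in siPRKRA replicate 2. miR-342-3p had 56.9, 78.0 and 61.0 after control siRNA and 94.1, 106.6 and 88.7 after siPRKRA. Both were chosen for their likeness to the mRNAs in these libraries, so a shared pattern over them follows largely from that choice. The difference between groups in the log2 ratio of let-7b-5p to the mean of the mRNAs, siPRKRA minus control siRNA, was -0.61. For miR-423-3p it was -0.39 and for miR-197-3p -0.55. With every row scaled by the 5 mRNA rows, the median difference of all 111 rows was -0.59.

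Against the miRNAs as a class the mRNAs were higher in siPRKRA libraries on average, with an overlap between groups. The log2 ratio of the mean of the 5 mRNAs to the median tested miRNA was 2.83, 2.60 and 3.03 in the control group and 2.91, 4.54 and 3.43 with siPRKRA. siPRKRA replicate 1 fell inside the control range and replicate 2 was the highest. The difference was 0.81 ± 0.50 (SE; exact permutation p = 0.2, two-sided) and 0.35 without siPRKRA replicate 2. With the sum of all miRNA values as the denominator it was 0.12 (exact permutation p = 0.7), and with that sum without miR-4454 and miR-720 it was 0.69 (exact permutation p = 0.2). Among single members the ratio of ACTB to the median miRNA did not overlap between groups, with 2.60, 2.18 and 2.79 against 2.98, 4.50 and 3.34, a difference of 1.08 ± 0.49 (SE; exact permutation p = 0.1) and of 0.64 without siPRKRA replicate 2. On this denominator every siPRKRA library lay above every control library for 23.4% of all 111 rows and below for 2.7%, and 1 of 5 members above is near that share. The other 4 members overlapped, with differences from 0.71 for RPLP0 to 0.83 for B2M and exact permutation p values of 0.2 to 0.3. Without siPRKRA replicate 2 these differences were 0.21 for RPL19, 0.27 for RPLP0, 0.31 for GAPDH and 0.33 for B2M.

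Against the graded control probes, 5 assay control rows of a class not given and taken not to come from the cells, all 5 mRNAs were higher in siPRKRA libraries. The geometric mean of these probes ranged over 1.36-fold between libraries, from 1633 to 2221 counts. It was 1903, 2168 and 1959 in control replicates 1 to 3 and 1769, 1633 and 2221 in siPRKRA replicates 1 to 3, so the groups overlapped. The log2 ratio of ACTB to it was -1.02, -1.61 and -0.81 after control siRNA and 2.06, 1.22 and 0.80 after siPRKRA, a 5.68-fold difference of the means. The other members differed by 4.76-fold for B2M, 4.40-fold for RPL19, 4.39-fold for GAPDH and 4.37-fold for RPLP0. None overlapped between groups, and on this denominator every siPRKRA library lay above every control library for 73.9% of all 111 rows, the background for 5 of 5 members. Each had an exact permutation p of 0.1, two-sided, and was largest in siPRKRA replicate 1. Without that library the folds were 4.45 for ACTB, 3.84 for B2M, 3.67 for RPL19, 3.55 for RPLP0 and 3.54 for GAPDH. Scaling every row by these probes in limma called 36 of 111 rows (32.4%), all higher, and 5 of them were the members (limma adjusted p = 0.0109 for ACTB and from 0.0236 to 0.0255 for the others). That scaling moved the median of all rows by 1.67, to 1.63. Relative to that median ACTB was 0.87 higher and the other members 0.49 to 0.62. Group and the total counts of the mRNA and miRNA rows cannot be told apart in this comparison. Every siPRKRA library held more mRNA counts, which are those of the members, than any control library. The same was true of the miRNA counts.

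**Figure D4:**
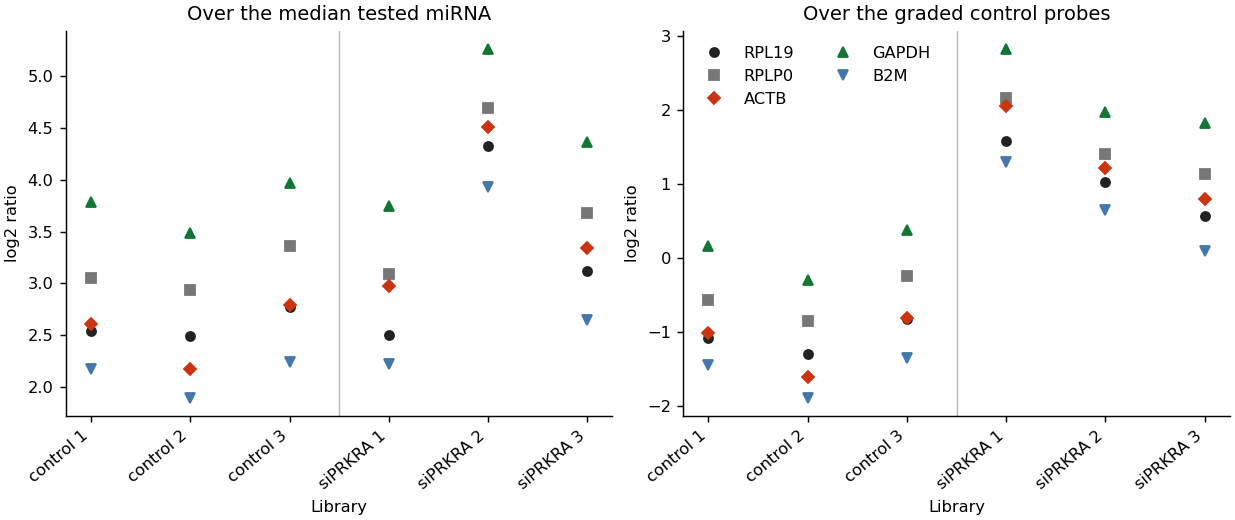
log2 ratio of each reference mRNA to the median of the 106 tested miRNAs (left) and to the geometric mean of the 5 graded control probes (right), by library; each point is 1 library. On the left siPRKRA replicate 2 is highest, with ACTB at 4.50, and on the right all siPRKRA libraries lie above all control libraries for each mRNA, with ACTB at 0.80 or more against -0.81 or less.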

How the data were processed

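The 5 mRNA rows were measured in 3 control siRNA and 3 siPRKRA libraries. The authors deposited a processed signal for every row and library; the values themselves show that background had been subtracted and each library multiplied by 1 factor. The software, the background rule and the scaling probes were not given in the sources used here. Another deposited table gives the miRNA signal as log2 (matched within 0.000234). The authors' deposited comparison of 177 miRNAs, with p-values, log2 levels and a fold score, holds no mRNA and served only for miRNA names.

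Division by a recovered factor (0.231 to 1.525) gave counts above background, whole within 0.1 for 100.0% of values tried once the background's decimal part was allowed for. The 5 mRNA accessions matched RefSeq without their versions. Ratios were log2 differences within a library, compared by exact two-sided permutation over libraries; single-library SEs cover counting error only. Because no column holds counts, the count test named in the design gave way to limma (version 3.58.1, R 4.3.3), with lmFit, a trended eBayes and a pseudocount of 1, tested on simulated data. Other tools were matplotlib 3.10.9, scipy 1.17.1, pandas 2.3.3, numpy 2.4.6 and Python 3.11.15. Named were the 5 members, the miRNAs with the smallest SD of the log2 ratio (3 for the mean, 1 per member) and the marker miRNAs. "Graded control probes" stands for the control rows above 100 in every library, whose class no file gives. The members, lists and tests were chosen with earlier results of these data known. Alternatives were other references, scalings, filters, pseudocounts, background, replicate pairing and leaving out each library.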

Additional observations from a re-analysis of the deposited data

Results flagged for a closer look

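Of 5 further miRNA accessions that only the signal table holds and that carry no library factor, 3 were at 1 in all libraries. Another was not at 1 in all libraries, and its values are not given here. The last, which the files do not name and no comparison above uses, gave a signal in siPRKRA libraries above that of the control libraries. Its values were 1, 1 and 6.38 in control siRNA replicates 1 to 3 and 102.35, 20.17 and 43.88 in siPRKRA replicates 1 to 3, with means of 2.79 and 55.5. It was highest in siPRKRA replicate 1, which also held the most mRNA counts, and the part of these counts in it was not tested. Relative to the graded control probes, 73.9% of the 111 tested rows had every siPRKRA library above every control library. Groups of 3 libraries were not tested for outlying samples.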

How the results depend on the processing

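For the ratio of ACTB to the ribosomal protein mRNAs the log2 difference was 0.27 to 0.45 over the 11 alternatives run. Since its groups did not overlap, leaving out 1 library could not change its sign. The exact permutation p was 0.1 with other references or with background added back. It was 0.2 with 1 library left out, the smallest that 2 against 3 libraries can give. The lowest difference was without control siRNA replicate 2 and the highest without control siRNA replicate 1. The difference of B2M ranged from 0.086 to 0.19. GAPDH turned to -0.0021 with RPL19 alone and ranged from -0.056 to 0.071 as single libraries were left out (-0.055 to 0.071 in limma), and RPL19 over RPLP0 ranged from -0.058 to 0.048, all within the spread. With a replicate block the differences of means are the same by construction (0.37 for ACTB, exact sign-flip p = 0.25, the smallest that 3 pairs can give). limma with the block called 0 rows in both scalings. The deviations of same-numbered libraries from their group means correlated at r = 0.16, -0.10 and -0.08 across 111 rows. In groups of 3 libraries 1 outlying library moves the deviations of the others, so these values do not show whether same-numbered libraries were paired. In the deposited scaling limma called 635 of 805 rows with no filter (0 members), of which 611 were lower and 24 higher. The floor value was 1.32 to 1.53 in control and 1 to 1.09 in siPRKRA libraries, and its part in these calls was not tested. With the tested rows limma called 36 with the graded control probes and 1 without the trend. Leaving out each library gave 0 to 4 (2 without control siRNA replicate 3, 4 without siPRKRA replicate 2). Relative to the ribosomal protein mRNAs limma called 3 with no filter, 8 with 25 counts added back and 2 without the trend. Leaving out each library gave 0 to 8 there (2 without control siRNA replicate 3, 8 without siPRKRA replicate 2). Relative to the ribosomal protein mRNAs each of these settings called 0 members. Scaled by the 5 mRNA rows, the log2 differences of RPL19, RPLP0 and GAPDH were -0.095, -0.10 and -0.097, with ACTB at 0.27 and B2M at 0.021. This scaling sets the mean difference of the 5 members near 0 by construction. In limma-voom RPLP0 was at -0.0087 and GAPDH at -0.0032. These settings moved the median of all rows to -0.59 and -0.49. The causes of the other changes were not tested. With 3 libraries a group no ratio could reach an exact p under 0.1.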
